A study of Mus musculus with 3 samples.

Results

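The genes described are 10 genes of acute phase plasma proteins, which the liver secretes into the blood in amounts that change during inflammation. They were the 4 serum amyloid A genes Saa1, Saa2, Saa3 and Saa4, the orosomucoid genes Orm1 and Orm2, the lipocalin gene Lcn2, the haptoglobin gene Hp, the hemopexin gene Hpx, and Apcs, which encodes serum amyloid P component. They were chosen by gene symbol, and all 10 were found among the 23361 genes of the expression files. All 10 also reached an FPKM of 1 or more in some sample, the filter for the comparisons, which 10792 genes passed. FPKM counts the sequenced fragments of a gene relative to the length of its transcript and to the mapped fragments of the library, so that levels of genes of different length can be compared.

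The study profiled the livers of male C57BL/6J mice at an age of 8 to 10 weeks, labelled by the operation they had undergone. In the sham group the abdomen was opened without occluding a vessel, and the liver was taken at 90 min. In the warm ischemia (WI) group the blood supply of part of the liver was clamped for 90 min. In the ischemia followed by reperfusion (IR) group the clamp was removed after 90 min and blood flowed again for 120 min, so that the liver was taken 210 min after the start of occlusion. All mice were fasted before surgery and anaesthetised with chloral hydrate, controls included. Each group was sequenced as 1 mRNA library, and whether its RNA came from a single mouse or a pool is not stated. No comparison therefore had replicates, and no p-value is given. A gene is called changed where FPKM + 1 differed at least 2-fold, and each count among the 10 genes is set beside the share of all 10792 genes that did so. The deposited 95% bounds of each FPKM were used as well. These bounds, and the standard errors (SE) derived from them, rest on Cuffdiff's count model and leave out how mice vary.

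Hepatocytes make most acute phase proteins, and cytokines from macrophages and other cells set their rate of transcription. Signals of the Il6 type act through the receptor subunit Il6st, JAK kinases and Stat3, whereas signals of the Il1 and Tnf type act through NF-kB, and C/EBP transcription factors take part in both. Serum amyloid A travels on high density lipoprotein, orosomucoid is a carrier of lipophilic molecules, and lipocalin 2 withholds iron from bacteria by binding their siderophores. Haptoglobin binds free hemoglobin and hemopexin binds free heme, which are released when red cells break down. Serum amyloid P is a pentraxin that binds microbial surfaces and dead cells, and it is the main acute phase pentraxin of the mouse.

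The serum amyloid A genes lie within one cluster on chromosome 7 (mm10), with Saa3 at chr7:46711998-46715676, Saa4 at chr7:46727999-46732543, Saa1 at chr7:46740499-46742980 and Saa2 at chr7:46751833-46754314. Orm1 (chr4:63344566-63348162) and Orm2 (chr4:63362449-63365877) flank Orm3 on chromosome 4. Lcn2 is at chr2:32384637-32387739, Hp at chr8:109575128-109579172, Hpx at chr7:105591611-105600116 and Apcs at chr1:172893961-172895054. The 250 bases before the transcription start were read from RefSeq (GRCm38.p6) for 8 of the 10 genes. The promoters of the 6 genes whose levels differed most, or whose paralog did, are printed from 5′ to 3′ on the strand of the gene. Capitals mark each match to the C/EBP motif TTGCNNAA on either strand, and in Saa1 and Saa2 also the base before it, which belongs to the overlapping C/EBP motif TTNNGCAAT.
Saa1: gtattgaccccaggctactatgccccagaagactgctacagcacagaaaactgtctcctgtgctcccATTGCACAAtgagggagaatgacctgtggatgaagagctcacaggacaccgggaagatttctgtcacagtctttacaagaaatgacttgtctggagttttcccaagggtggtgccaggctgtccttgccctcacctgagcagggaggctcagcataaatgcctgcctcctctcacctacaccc
Saa2: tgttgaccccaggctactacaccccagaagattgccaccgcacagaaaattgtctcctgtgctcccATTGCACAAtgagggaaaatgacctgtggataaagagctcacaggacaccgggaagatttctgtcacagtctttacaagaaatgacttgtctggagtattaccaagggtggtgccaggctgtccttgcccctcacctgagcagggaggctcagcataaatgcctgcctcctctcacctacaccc
Saa3: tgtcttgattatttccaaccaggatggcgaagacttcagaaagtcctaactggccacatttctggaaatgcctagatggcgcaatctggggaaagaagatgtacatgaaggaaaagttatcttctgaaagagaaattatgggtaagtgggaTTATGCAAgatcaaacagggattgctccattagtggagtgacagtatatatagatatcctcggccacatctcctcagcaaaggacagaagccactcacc
Saa4: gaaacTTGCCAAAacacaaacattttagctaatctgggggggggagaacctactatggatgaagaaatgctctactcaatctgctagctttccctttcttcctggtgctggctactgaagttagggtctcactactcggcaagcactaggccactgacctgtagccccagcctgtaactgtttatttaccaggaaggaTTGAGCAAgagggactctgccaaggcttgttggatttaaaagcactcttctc
Orm2: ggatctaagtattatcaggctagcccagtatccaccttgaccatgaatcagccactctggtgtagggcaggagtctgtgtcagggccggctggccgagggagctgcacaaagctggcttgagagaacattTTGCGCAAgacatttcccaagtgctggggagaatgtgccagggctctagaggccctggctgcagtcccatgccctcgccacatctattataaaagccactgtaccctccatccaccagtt
Lcn2: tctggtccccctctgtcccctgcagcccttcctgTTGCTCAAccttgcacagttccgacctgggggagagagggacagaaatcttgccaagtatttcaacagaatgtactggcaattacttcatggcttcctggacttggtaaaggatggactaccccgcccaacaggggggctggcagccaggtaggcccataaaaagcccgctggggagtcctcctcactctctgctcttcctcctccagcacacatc
The stretches printed are chr7:46742981-46743230 for Saa1 (minus strand), chr7:46751583-46751832 for Saa2 (plus strand), chr7:46715677-46715926 for Saa3 (minus strand), chr7:46732604-46732853 for Saa4 (minus strand), chr4:63362199-63362448 for Orm2 (plus strand) and chr2:32387740-32387989 for Lcn2 (minus strand). The motif TTGCNNAA was found in 7 of the 8 promoters, all but that of Apcs, and in 9.55% of 27025 RefSeq promoters. It lay 182 to 175 bases before the start in Saa1 and 183 to 176 in Saa2, but 99 to 92 in Saa3 and 120 to 113 in Orm2. Lcn2 held it further away, at 216 to 209, and Saa4 held it at 245 to 238 and at 52 to 45. The motif TTNNGCAAT was found in Saa1 and Saa2 and in 1.95% of all promoters. A STAT motif (TTCNNNGAA, 7.18% of all promoters) and the IL-6 element CTGGGAA (9.08%) were found in Apcs alone. The string GGGNNTTCC, searched for NF-kB (4.88% of all promoters), and GTTAAT, searched for HNF1 (6.52%), had no match in the 8 windows. Other forms of these motifs were not searched, so sites of another form could have been missed. These matches describe letters in short windows and do not show binding.

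Saa1 and Saa2 are near copies of each other, which bears on how far their values can be told apart. Their promoters were identical at 94.8% of aligned positions and their coding sequences at 95.1%, with 18 mismatches over 369 bases. Coding identity with Saa1 was 77.1% for Saa3 and 67.3% for Saa4, and it was 89.9% between Orm1 and Orm2. Of the windows of 50 bases in the Saa1 transcript, 9.17% also occurred in the Saa2 transcript, and for Orm1 and Orm2 the share was 20.4%. No window of 100 bases was shared by Saa1 and Saa2, whereas 6.95% were shared by Orm1 and Orm2. How fragments that fit both copies were divided is not stated, so the separate values within each pair are uncertain.

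The libraries were checked against their labels before the genes were compared. All mice were labelled male, but Xist, the RNA that silences the second X chromosome of females, was at an FPKM of 18.9 in sham liver, 20.1 in WI liver and 1.29 in IR liver. The Y-linked gene Eif2s3y was listed at 0 in the sham and WI samples and at 13.2 in IR liver, and Ddx3y was at 0, 0.00849 and 8.58. The libraries labelled sham and WI thus went against the male label, and the IR library did not. In both comparisons with the IR sample, this difference, reperfusion and the added time after surgery cannot be told apart, and no sham sample matches the IR sample in time. The sham and WI samples share the pattern. The liver label was met by hepatocyte markers such as Cyp2e1 at 3139 to 4782, although Alb was listed at 0 in every sample because Cuffdiff does not process loci with too many fragments. In this bulk tissue, fewer cells of a type and less RNA per cell cannot be told apart.

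The samples also differed in scale. FPKM summed to 475754 in sham liver, 487912 in WI liver and 712423 in IR liver, and all 6 reference genes listed (Gapdh, Actb, Hprt, Ppia, Tbp and Rplp0) were higher in IR liver than in WI liver, 3 of them also on the TPM scale described next. The median gene differed little, by 0.03 (log2) between the IR and WI samples and by 0.05 between the IR and sham samples. Rescaling each sample to the same sum, as in TPM, moved these medians to -0.41 and -0.42. The changed genes then went from 624 higher and 154 lower to 322 higher and 833 lower for IR against WI, and from 577 higher and 232 lower to 269 higher and 1110 lower for IR against sham. Between the WI and sham samples the median moved only from 0.02 to -0.02. Values on the TPM scale are therefore given beside the main results with the IR sample.

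The FPKM of the 10 genes ran from 27.5 for Saa3 in WI liver to 7498 for Hpx in IR liver. In the sham sample the order from the top was Hpx, Saa1, Hp, Saa2, Orm1, Orm2, Apcs, Lcn2, Saa4 and Saa3. In the WI sample Hp and Orm1 stood above Saa1, and Lcn2 stood above Apcs and Saa4. In the IR sample Saa1 and Saa2 were again above Orm1, Lcn2 was above Orm2, and Saa3 was above Saa4. The bounds of neighbours in these orders overlapped in every sample, with the exception of Saa4 and Saa3 in WI liver. Hpx ranked 9, 7 and 12 among all genes in the sham, WI and IR samples. The 10 genes held 3.48% of the summed FPKM in sham liver, 2.90% in WI liver and 3.08% in IR liver, and Saa1 and Saa2 alone held 1.18%, 0.443% and 0.843%.

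**Figure D1:**
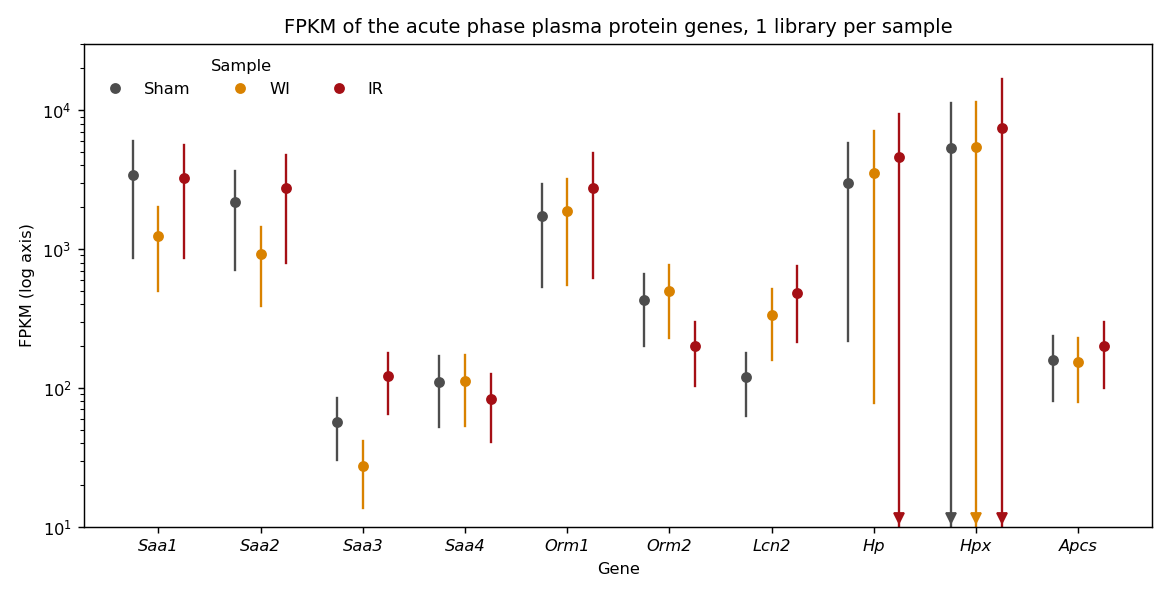
FPKM (log axis) of each of the 10 genes in the sham, WI and IR samples, with the deposited 95% bounds as vertical lines and an arrow where a lower bound runs below the axis. Saa1, Saa2 and Saa3 were lowest in WI liver, Lcn2 was lowest in sham liver and Orm2 was lowest in IR liver.

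Comparing the WI sample with the sham sample asks what ischemia without reflow changed. Saa1, Saa2 and Saa3 were lower in WI liver by at least 2-fold and Lcn2 was higher, while the other 6 genes differed by at most 0.25 on the log2 scale. That is 3 of 10 genes lower, where 1.10% of all tested genes were, and 1 of 10 higher, where 0.751% of all tested genes were. The median difference of the 10 genes was 0.03, beside 0.02 for all genes. None of the 10 had bounds that lay apart, which 0.195% of all genes had in the higher and 0.482% in the lower direction.

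Comparing the IR sample with the WI sample asks what followed when blood returned. Saa1, Saa2 and Saa3 were higher by at least 2-fold and Orm2 was lower. These were 3 of 10 genes, beside 5.78% of all tested genes higher, and 1 of 10, beside 1.43% lower. Saa3 was the only one of the 10 with bounds apart, which 3.22% of all genes had in the higher direction and 0.398% in the lower. The median difference was 0.49, beside 0.03 for all genes and 0.51 for the 6 reference genes. On the TPM scale it was -0.05, beside -0.41 for all genes and -0.02 for the reference genes. Saa1, at 0.83 on the TPM scale, was no longer 2-fold higher. The bounds of Orm2 lay apart on that scale as well as those of Saa3. How many of all genes had bounds apart on the TPM scale was not computed.

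Comparing the IR sample with the sham sample spans both steps, and it uses libraries that the other comparisons also use. Lcn2 and Saa3 were higher by at least 2-fold and Orm2 was lower. These were 2 of 10 genes, beside 5.35% of all tested genes higher, and 1 of 10, beside 2.15% lower. Lcn2 alone had bounds apart, beside 2.70% of all genes in the higher and 1.12% in the lower direction. The median difference was 0.42, beside 0.05 for all genes and 0.61 for the 6 reference genes. Rescaled to TPM it was -0.16, beside -0.42 for all genes and 0.04 for the reference genes. On the TPM scale the bounds of Lcn2 overlapped, and those of Orm2 lay apart instead, by a narrow gap. The share of all genes with bounds apart was not computed on that scale, where 1110 genes were 2-fold lower and 269 higher. The bounds of Lcn2 also overlapped after rescaling to the same sum without the major urinary protein (Mup) genes. This last setting was chosen after seeing the data. Saa3 lost its 2-fold call on the TPM scale, at 0.49, and when the samples were rescaled by their median ratio, at 0.98.

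**Figure D2:**
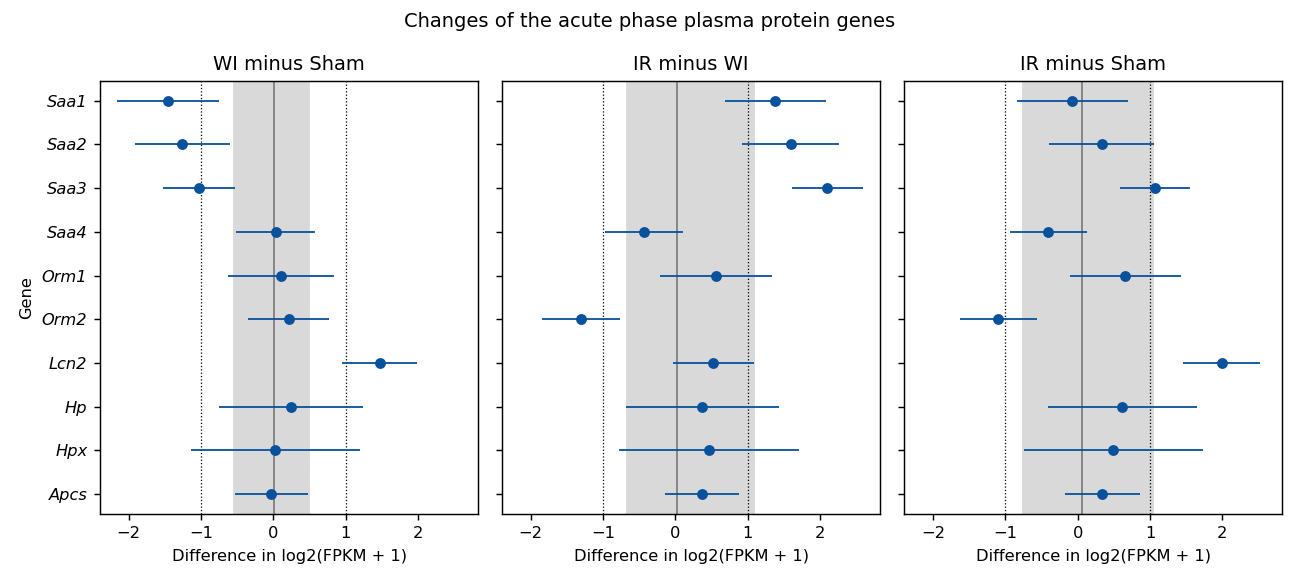
Difference in log2(FPKM + 1) of each gene between WI and sham, IR and WI, and IR and sham samples, with 1 SE on each side from the deposited bounds. The grey band holds the central 90% of the 10792 tested genes, the grey line is their median and the dotted lines mark 2-fold, and Saa1, Saa2 and Saa3 lie left of the band in the first panel and right of it in the second.

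Saa1 and Saa2 encode the main serum amyloid A proteins of mouse plasma. Saa1 had an FPKM of 3414 in sham liver (bounds 863 to 5966), 1248 in WI liver (496 to 2001) and 3251 in IR liver (860 to 5642). The WI sample was the low one, and the bounds of all 3 overlapped. The IR and sham samples differed by -0.07 (SE 0.771), but by -0.65 on the TPM scale. Between the WI and sham samples the difference was -1.45 (SE 0.706), and 0.398% of all tested genes were as low. From WI to IR it was 1.38 (SE 0.700), and 3.24% of genes were as high.

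Saa2 stood below Saa1 in every sample. Its FPKM was 2187 in sham liver (702 to 3673), 915 in WI liver (387 to 1444) and 2756 in IR liver (791 to 4721). Again the WI sample was lowest and all bounds overlapped. The WI sample was 2.39-fold below the sham sample, and the IR sample was 3.01-fold above the WI sample. On the log2 scale these differences were -1.26 (SE 0.655) and 1.59 (SE 0.675), and the second was 1.04 on the TPM scale. Since the 2 genes share sequence, they are not separate observations. Their summed FPKM was 5602 in sham liver, 2164 in WI liver and 6007 in IR liver.

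Saa3 is the serum amyloid A gene that macrophages and fat cells express as well as hepatocytes. Its FPKM was 57.2 in sham liver (30.4 to 84.1), 27.5 in WI liver (13.6 to 41.4) and 121 in IR liver (64.9 to 177). The IR sample was the highest and its bounds did not reach those of the WI sample, whereas the sham sample overlapped both. The IR sample was 4.40-fold above the WI sample, a log2 difference of 2.10 (SE 0.493) that 1.44% of all genes reached, and of 1.56 on the TPM scale. It was 2.12-fold above the sham sample, a difference of 1.07 (SE 0.479). The WI sample lay below the sham sample by a difference of -1.03 (SE 0.494), just past 2-fold.

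Saa4 encodes the constitutive form of serum amyloid A, which responds little to inflammation. It was at an FPKM of 111 in sham liver (52.2 to 169), 113 in WI liver (53.3 to 173) and 83.3 in IR liver (40.9 to 126). The sham and WI samples were level, the IR sample was the low one, and all bounds overlapped. The difference between the WI and sham samples was 0.03 (SE 0.545), and that between the IR and WI samples was -0.43 (SE 0.534), or -0.97 on the TPM scale. Of the 4 genes in the cluster it was the only one that stayed within 2-fold in every comparison.

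Orm1 and Orm2 encode forms of orosomucoid, also called alpha-1-acid glycoprotein. Orm1 had an FPKM of 1743 in sham liver (530.0 to 2956), 1871 in WI liver (552 to 3189) and 2749 in IR liver (616 to 4883). The IR sample was highest, but its difference from the WI sample was 0.56 (SE 0.771) and fell to 0.01 on the TPM scale. Orm2 was at 432 in sham liver (201 to 663), 500 in WI liver (227 to 772) and 201.01 in IR liver (103 to 299). For Orm2 the IR sample was the low one, with bounds that overlapped the others on the FPKM scale but not on the TPM scale. On the TPM scale the IR and sham bounds nearly met. The IR sample was 2.49-fold below the WI sample, a difference of -1.31 (SE 0.537), and 0.528% of all tested genes were as low. It was 2.15-fold below the sham sample, a difference of -1.10 (SE 0.532). On the TPM scale these differences were -1.85 and -1.68.

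Lcn2 encodes lipocalin 2, which hepatocytes make in the acute phase and neutrophils store in their granules. Its FPKM was 121 in sham liver (63.3 to 178), 335 in WI liver (158 to 512) and 482 in IR liver (215 to 749). The sham sample was the low one, and its bounds met those of the WI sample but not those of the IR sample. On the TPM scale its bounds met those of the IR sample too. Between the WI and sham samples Lcn2 was 2.78-fold higher, a difference of 1.47 (SE 0.520) that 0.278% of all genes reached. From sham to IR the difference was 1.99 (SE 0.535), which 1.33% of genes reached, and 1.41 on the TPM scale. The step from the WI to the IR sample was 0.52 (SE 0.561), and on the TPM scale it was -0.02. Lcn2 was the only one of the 10 genes that was 2-fold higher in WI liver than in sham liver.

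Hp and Hpx encode the scavengers of hemoglobin and heme. Hp had an FPKM of 3003 in sham liver (219 to 5787), 3559 in WI liver (77.7 to 7041) and 4608 in IR liver (0 to 9436). Hpx was at 5326 in sham liver (0 to 11302), 5429 in WI liver (0 to 11555) and 7498 in IR liver (0 to 16902). Both were highest in IR liver, with bounds wider than for any of the other 8 genes. The differences between the IR and WI samples were 0.37 (SE 1.05) for Hp and 0.47 (SE 1.24) for Hpx, and on the TPM scale -0.17 and -0.08. At this precision a 2-fold change of either gene was not detectable. Apcs was at 158 in sham liver (80.3 to 235), 155 in WI liver (79.1 to 230.04) and 200.2 in IR liver (99.8 to 301), and its bounds overlapped throughout. Its difference between the WI and sham samples was -0.03 (SE 0.506), and that between the IR and WI samples was 0.37 (SE 0.512), or -0.17 on the TPM scale.

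Ratios of FPKM within a library do not depend on how the libraries were scaled. Saa2 stood to Saa1 at 0.641 in sham liver, 0.733 in WI liver and 0.848 in IR liver. The ratio of Saa3 to the constitutive Saa4 was 0.517 in sham liver, 0.244 in WI liver and 1.45 in IR liver, so that only in IR liver did Saa3 exceed Saa4. Orm2 stood to Orm1 at 0.248, 0.267 and 0.0731 in the same order, a spread of 3.65-fold that came from the IR sample. Lcn2 stood to Apcs at 0.766 in sham liver, 2.17 in WI liver and 2.41 in IR liver. The ratio of Lcn2 to Saa3 was 2.11 in sham liver, 12.2 in WI liver and 3.98 in IR liver. Hp and Hpx kept the most even ratio of those computed, at 0.564, 0.656 and 0.615.

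**Figure D3:**
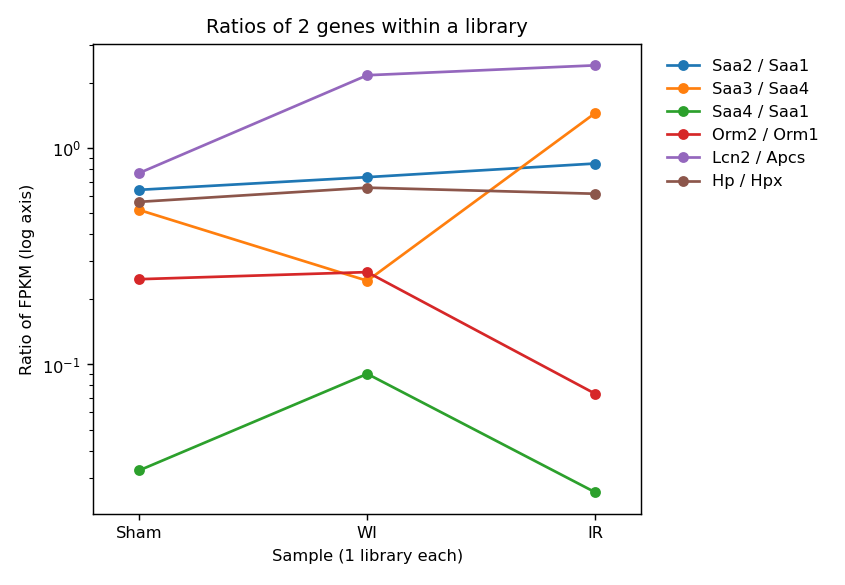
Ratio of the FPKM of 2 genes within each library (log axis), for 6 pairs, with 1 point per sample. Saa3 crossed above Saa4 in IR liver at 1.45, Orm2 dropped to 0.0731 of Orm1 there, and Lcn2 stood at 0.766 of Apcs in sham liver and at more than 2 times Apcs in the other samples.

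The genes whose pattern over the 3 samples was most like that of a gene described above were found by distance over the 2 differences from the sham sample, among 4583 genes with an FPKM of at least 10. This was done for the 3 genes with the widest range, and with 3 samples it is a description only. Nearest to Saa3 was Angptl4, an inhibitor of lipoprotein lipase, at 122, 63.5 and 268 in the sham, WI and IR samples (distance 0.119). Slfn2 (7.10, 3.53 and 16.6) and Hdc (4.68, 2.06 and 12.6) followed. Both passed the filter only through the IR sample, where Saa3 was highest, so the filter partly set this likeness. Nearest to Lcn2 was Fos, an immediate early transcription factor, at 8.31, 28.9 and 40.6 (distance 0.278), followed by Nudt7 and Cxcl10. Fos and Cxcl10 were below 10 in the sham sample, where Lcn2 was lowest, and passed the filter through the other samples. Nearest to Saa2 was Slc22a5, a carnitine transporter, at 27.0, 11.3 and 34.8 (distance 0.0717).

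Other positive acute phase proteins were described as a list of 23 genes, all past the filter. Between the WI and sham samples only Serpina3k changed, from 4581 to 1881, and it was 7116 in IR liver. WI liver was thus its lowest sample, as for Saa1 and Saa2, and its bounds overlapped in all comparisons. In IR liver, 10 of the 23 were above WI liver by at least 2-fold and none was below it, with a median difference of 0.47. The fibrinogen chains Fga (879, 964 and 2449 in the sham, WI and IR samples), Fgb (2180, 2596 and 5290) and Fgg (1610, 1873 and 4262) were among them, but not on the TPM scale. Hamp, the hormone that closes the iron exporter (1700, 1378 and 3515), was among them likewise on the FPKM scale alone, whereas the protease inhibitor Serpina3n (203, 171 and 1056) was among them on both scales. Serpina3k and Serpina3n belong to a cluster of similar genes, so their separate values are uncertain. Bounds lay apart for 2 of the 10, Cd14 (9.99, 5.31 and 110.01) and Il1rn (4.65, 3.20 and 61.3), which blood cells express too. On the TPM scale 4 of the 23 were higher (Serpina3n, Serpina3k, Cd14 and Il1rn) and 1 was lower, beside 322 higher and 833 lower among 10939 genes, and the median was -0.07. Crp, the other pentraxin, was at 241, 316 and 373, within 2-fold throughout.

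Negative acute phase proteins, whose plasma levels fall in inflammation, were listed as 12 genes of which 11 passed the filter. Serpina6, the carrier of corticosteroids and 2-fold higher in WI liver than in both other samples, was at 236 in sham liver, 491 in WI liver and 218 in IR liver. Apoa1, the main protein of the lipoprotein that carries serum amyloid A, was at 7630, 4239 and 8799. Its WI sample was the low one, as for Saa1 and Saa2, and 2-fold was passed between the IR and WI samples only, where the TPM scale ended the call. No gene of the list was lower by 2-fold in IR liver than in sham liver.

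Among 7 cytokine ligands, 3 passed the filter, and Osm did so only through the IR sample. Il1b was at 4.24 in sham liver, 7.29 in WI liver and 23.4 in IR liver, and Osm was at 0.0199, 0.0704 and 2.82. Both were 2-fold higher in IR liver than in either other sample, with bounds apart, and these 2-fold calls were the same on the TPM scale. On that scale, however, the bounds of Il1b in the IR and WI samples overlapped. Tnf reached 0.808 and Il6 only 0.152 in IR liver, below the filter. Of 7 receptor genes, Il1r1 was at 17.9, 6.05 and 67.8 with bounds apart in every comparison on the FPKM scale. Rescaled to TPM, its bounds in the IR and sham samples overlapped. Its WI sample was low, as for the inducible serum amyloid A genes. Il6ra, 2-fold lower in IR liver than in sham liver, was at 29.8, 14.5 and 13.5, and the shared subunit Il6st at 25.3, 22.2 and 22.9.

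Of 12 kinase and transcription factor genes, Cebpd alone was 2-fold lower in WI liver than in sham liver, and Stat3, Cebpb, Cebpd and Rela were 2-fold higher in IR liver than in WI liver. Cebpd, a C/EBP factor induced in the acute phase, was at 9.64, 3.20 and 32.8 in the sham, WI and IR samples. Its relative Cebpb was at 158, 113 and 334. Stat3 was at 19.5, 24.0 and 52.3, and Rela, the NF-kB subunit, at 10.7, 10.6 and 25.6. On the TPM scale 2 of the 12, Cebpb and Cebpd, were 2-fold higher in the IR than in the WI sample, and 1 was lower. Beside them, 322 of 10939 genes were higher and 833 lower on that scale. Stat3 and Rela were then no longer 2-fold higher. Of 6 feedback inhibitors, 4 were 2-fold higher in IR liver than in WI liver, beside 5.78% of all tested genes. All 4 had bounds apart, beside 3.22% of all genes. On the TPM scale 3 of them stayed 2-fold higher, whereas Nfkbiz did not and its bounds overlapped. Of these 4, Socs1 passed the filter only through the IR sample. Socs3, the inhibitor of Stat3 signalling, was at 3.14, 5.38 and 109.

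**Figure D4:**
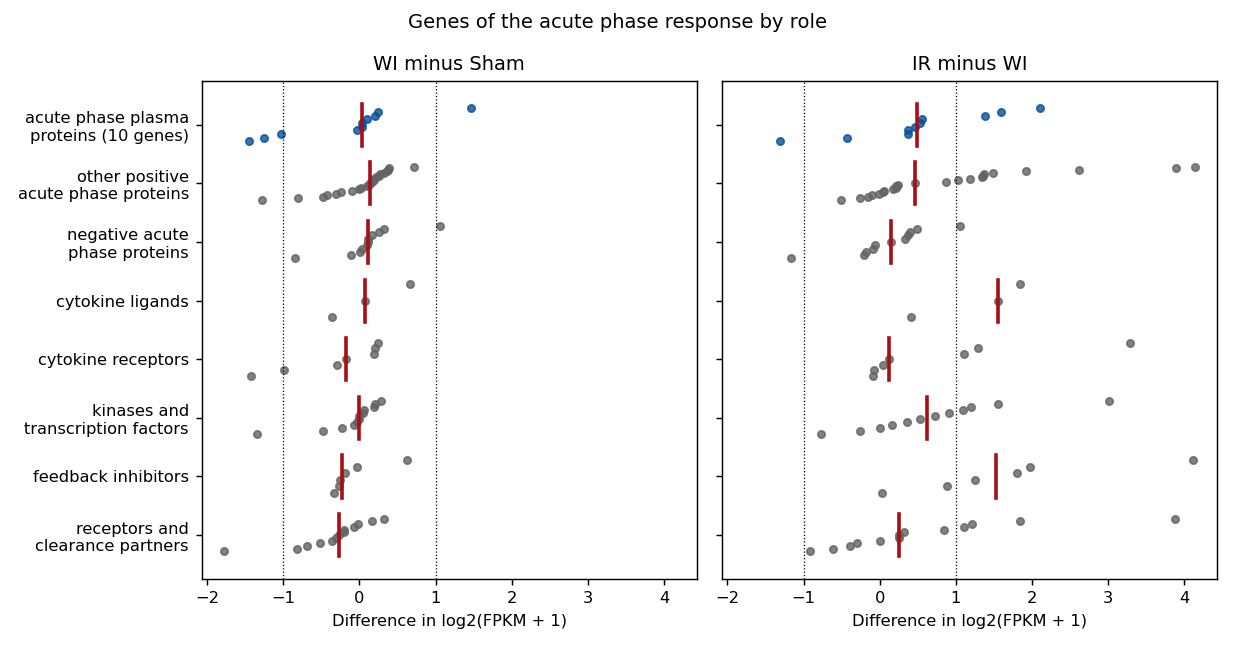
Difference in log2(FPKM + 1) between the WI and sham samples and between the IR and WI samples for the 10 genes and 7 lists of genes of the acute phase response, with 1 point per gene past the filter and a red bar at the median. Between the WI and sham samples the medians lie near 0, and between the IR and WI samples the medians of cytokine ligands (1.56) and feedback inhibitors (1.53) lie furthest to the right. The ligand median covers only the 3 of 7 genes past the filter. Osm, and Socs1 among the feedback inhibitors, passed it only through the IR sample.

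The partners that take up or bind these proteins were a list of 14 genes, 13 of them past the filter. Cd163, the macrophage receptor for haptoglobin bound to hemoglobin, was at 16.2 in sham liver, 4.02 in WI liver and 2.84 in IR liver. Its bounds lay apart between the sham sample and each of the others. Lrp1, the receptor for hemopexin bound to heme, was at 38.9, 48.8 and 25.3. Hmox1, the oxygenase that breaks heme down, was at 22.6, 18.1 and 280, with the IR sample high and its bounds apart from both others. Fpr2, a receptor for serum amyloid A, was at 1.95, 1.91 and 9.43, and Slc22a17, a receptor for lipocalin 2, was below 0.5 in every sample.

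Cells other than hepatocytes can contribute RNA of Lcn2 and Saa3, and their markers were measured in the same libraries. Of 13 neutrophil markers 12 were in the files, and 7 passed the filter. The 12 summed to an FPKM of 26.4 in sham liver, 20.1 in WI liver and 472 in IR liver, and all 7 were 2-fold higher with bounds apart in IR liver than in each of the others. Mmp8, Ngp and Cxcr2 passed the filter only through the IR sample, so that IR liver had to be their highest. Mmp9, below the filter, was at 0.238, 0.426 and 0.685 in sham, WI and IR liver, within 2-fold on the log2(FPKM + 1) scale. On the TPM scale 6 of the 7 were 2-fold above WI liver and 5 were 2-fold above sham liver. S100a8 was at 13.6, 9.17 and 212, Retnlg at 1.53, 1.18 and 36.6, and the granule gene Mmp8 at 0.139, 0.0573 and 8.59, whereas Mpo, Elane, Camp and Ltf, which also encode granule proteins, were at or below 0.237 in every sample. The part of these cells in the Lcn2 values of the WI and IR samples was not tested.

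Of 12 macrophage markers 11 were in the files under the names listed, and all 11 passed the filter. Their summed FPKM was 879 in sham liver, 502 in WI liver and 374 in IR liver. All 11 were lower in WI liver than in sham liver, with a median of -0.69, and Cd5l and Emr1 by more than 2-fold. Saa3 was lower in WI liver too, and it was highest in IR liver, where 7 of the 11 markers were 2-fold below the sham sample, and 9 of the 11 on the TPM scale. Of the 11 markers, 2 were higher in IR liver than in WI liver, Marco (20.9, 12.6 and 25.3) and Cd68 (18.5, 12.3 and 18.5). Adipocyte markers were nearly absent, with a sum of 0.0202, 0 and 0.0790, and Lep and Cfd were listed at 0 throughout. The part of macrophages in the Saa3 values was not tested. The summed FPKM of the 9 hepatocyte markers past the filter was 13339, 10712 and 10915 in sham, WI and IR liver. Rescaled to TPM it was 15665, 12266 and 8560. Endothelial markers summed to 40.4, 24.2 and 51.1, and on the TPM scale to 47.4 in sham liver and 40.1 in IR liver. Among them only Lyve1 was higher in IR liver than in sham liver, at 11.2, 2.73 and 33.4. Pecam1 (10.2, 6.52 and 7.74), Kdr (10.9, 9.45 and 4.80) and Stab2 (8.05, 5.47 and 5.17) were lower there. Stellate cell markers summed to 142, 101 and 102.

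**Figure D5:**
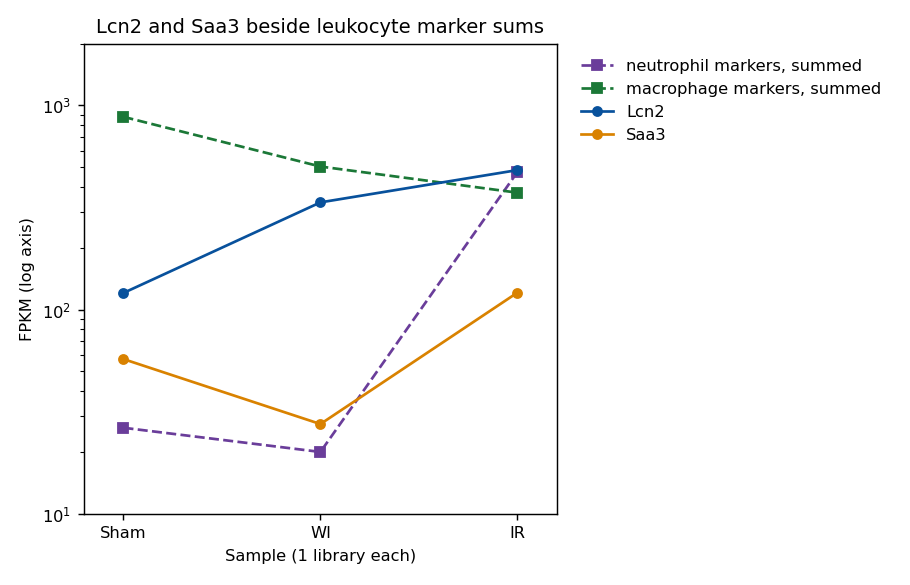
FPKM (log axis) of Lcn2 and Saa3 beside the summed FPKM of neutrophil and macrophage markers in the 3 samples, 1 library each, with lines joining the samples only to guide the eye. Lcn2 was at 335 in WI liver, where the neutrophil sum was 20.1, and Saa3 was highest in IR liver, where the macrophage sum was lowest at 374, and the part of these cells in either gene was not tested.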

How the data were processed

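Total RNA of mouse liver was sequenced as 1 mRNA library for each of the sham, WI and IR groups. Read pairs were aligned by the authors to mm10 using TopHat2 2.0.9, and FPKM per gene was computed by the authors with Cuffdiff of Cufflinks 2.0.2 at default parameters. The deposited FPKM come with 95% bounds and a status, and the gene annotation is not given in the sources used here. Counts are not among the values, so the depth behind each gene is not known from them, and library read totals were not used here. The status was OK for all 10 genes in all samples. Cuffdiff lists loci with too many fragments at FPKM 0, which affected 1 gene in sham liver, 1 in WI liver and 7 in IR liver.

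From these values log2(FPKM + 1) was compared between samples with the pseudocount of 1, over genes that reached an FPKM of 1 in some sample. The pseudocount understates changes of low genes. A standard error was taken from the distance of each upper bound to its FPKM, divided by 1.96. The groups followed the sample titles. Named genes were the 10 members, genes of 15 further lists that passed 2-fold or were abundant, and the 3 nearest genes by pattern, not all of which are reported here. Further list genes at low or unchanged FPKM were named after their values were seen. The members and lists were chosen with earlier results of these data known. Promoters came from RefSeq and transcripts from the GENCODE annotation of the older NCBIM37 build, by symbol. Alternatives changed the pseudocount, filter, fold threshold, status filter and scaling, and left out Saa1 and Saa2. The scripts were tested on simulated data. Python 3.11.15, numpy 2.4.6, pandas 2.3.3, Biopython 1.88 and matplotlib 3.10.9 were used.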

Additional observations from a re-analysis of the deposited data

How the results depend on the processing

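With 1 library per group no replicate could be left out, and differences between the samples may include differences between mice. No paired analysis was possible because each group has 1 library. Between the WI and sham samples 4 of the 10 genes passed 2-fold, and this count was 0 at a threshold of 4-fold and 2 without Saa1 and Saa2. For IR against WI the count was 4, and it was 1 at 4-fold and 2 without Saa1 and Saa2. For IR against sham it was 3, and it was 5 at 1.5-fold and 0 at 4-fold. Bounds that lay apart between the IR and WI samples went from 1 gene, Saa3, to 2 on the TPM scale, Saa3 and Orm2. Between the IR and sham samples the count stayed at 1 on the TPM scale, but the gene was Orm2, by a narrow gap, and no longer Lcn2. The same count over all genes was not made on the TPM scale. Those between the IR and sham samples went from 1 gene to 0 when the samples were rescaled to the same sum without the major urinary protein (Mup) genes, an alternative chosen after seeing the data. The moves with the threshold and without Saa1 and Saa2 follow from the construction of these alternatives, and the cause of the other moves was not tested. No 2-fold change among the 10 genes turned its direction under any alternative run, but none could have. The widest scale factors, 0.852 for sham and 1.28 for IR liver, differed by less than 2-fold. A change of pseudocount, filter or threshold cannot turn a direction either. Of all genes changed from WI to IR, 80.2% were higher, and this share was 27.9% on the TPM scale, 44.1% with the sum without the Mup genes, 68.9% with a pseudocount of 0.1 and 66.8% with none. From sham to IR it was 71.3%, and then 19.5%, 30.9%, 56.2% and 55.3%. With a pseudocount of 0.1 the number of all genes past 2-fold rose from 200 to 382 for WI against sham, from 778 to 1239 for IR against WI and from 809 to 1429 for IR against sham. With none it was 435, 1309 and 1480. On the TPM scale it was 1379 for IR against sham. A threshold of 1.5-fold gave 800, 2132 and 2572 genes for the 3 comparisons in this order, and one of 4-fold gave 24, 194 and 166.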

Other observations

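Genes beside the clusters were looked at after the values of the 10 genes had been seen. Next to the serum amyloid A cluster, Saal1 was at an FPKM of 0.941 in sham liver, 0.939 in WI liver and 1.01 in IR liver, Hps5 at 2.54, 2.38 and 1.86, and Gtf2h1 at 9.70, 8.90 and 8.63. None of these differed 2-fold between samples, whereas Saa1, Saa2 and Saa3 between them did. With the pseudocount of 1, Saal1 was too low to be called 2-fold lower than in sham liver, whatever its change. Ldha, a glycolytic enzyme further along, was at 278, 300 and 516, within 2-fold as well. Orm3, which lies between Orm1 and Orm2, was at 12.2, 12.2 and 10.9, and its ratio to Orm1 was 0.00702, 0.00652 and 0.00395. Orm2 was thus the only gene of the orosomucoid cluster past 2-fold. Among low values, where steps of a single fragment can be seen, the commonest ratio of the IR to the WI sample was 1.39, held by 136 of 643 genes with an FPKM under 0.05 in both. That of the IR to the sham sample was 1.25, held by 107 of 592 genes, and that of the WI to the sham sample was 0.917, held by 109 of 761 genes. The summed FPKM was also highest in IR liver.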
